A study of Homo sapiens with 8 samples.

Results

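A set of 51 genes for tRNA charging and amino acid supply was followed in SH-SY5Y cells, an established human neuroblastoma line, in which RPS29, a component of the small ribosomal subunit, was knocked down. The genes were chosen by symbol from a list: 19 cytoplasmic aminoacyl-tRNA synthetases, 16 mitochondrial synthetases, 2 scaffold proteins of the multi-synthetase complex, 9 enzymes of amino acid synthesis and 5 amino acid transporters. All 51 were among the 17927 genes of the RNA-seq table, and 50 were among the 14019 genes of the Ribo-seq table, where PARS2 was not listed. The knockdown libraries are labelled shRPS29 with the genotype RPS29 knockdown, and the control libraries are labelled shCONT with the genotype control; both groups are SH-SY5Y cells carrying a short hairpin RNA. Each group had 2 RNA-seq and 2 Ribo-seq libraries, 8 in all. Ribo-seq counts ribosome-protected fragments (footprints) and RNA-seq counts fragments of total RNA. No source used here gives the hairpin sequences, the number of hairpins, the time after knockdown or whether replicates were separate cultures, so p-values measure only the spread between these libraries, which may be technical.

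Aminoacyl-tRNA synthetases join each amino acid to its matching tRNA, and cytoplasmic translation and mitochondrial translation use mostly separate sets of these enzymes. Several cytoplasmic enzymes are held together in the multi-synthetase complex by scaffold proteins such as AIMP1 and AIMP2. When a tRNA lacks its amino acid, the kinase GCN2 (EIF2AK4) phosphorylates the initiation factor eIF2, translation of the transcription factor ATF4 rises, and ATF4 activates many genes for amino acid synthesis, transport and tRNA charging. ATF4 binds DNA with C/EBP partners at a composite element whose core reads TGATGNAA. Serine and glycine synthesis and the uptake of neutral amino acids supply protein and nucleotide synthesis in growing cells.

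The ATF4 core TGATGNAA was searched on both strands in RefSeq promoters, taken from 250 bases before to 50 bases after each annotated transcript start on build GRCh38.p14; a gene can have several, and it was counted as a holder when any of its promoters held the letters. A promoter was in that table for 43 of the 51 members. The letters occurred in 12 of the 43 (27.91%), against 2.711% of 11657 tested genes with a promoter and 3.617% of all 35116 promoters. The members had 1.42 promoters per gene and the tested genes 1.45. By class they occurred in 7 of 16 cytoplasmic synthetases, 1 of 14 mitochondrial synthetases, 0 of 2 scaffolds, 1 of 6 synthesis genes and 3 of 5 transporters. The same 8 letters, TGATGCAA or their reverse complement, were found in 8 of the 12 holders: AARS1, CARS1, IARS1, MARS1, NARS1, TARS1, SLC1A4 and SLC1A5. The other holders were GARS1, YARS2, ASNS and SLC3A2. The following 6 windows of 30 bases are shown because they hold the motif in the 4 holders whose RNA was called changed (CARS1, SLC3A2, ASNS and SLC1A4) and in MARS1 and IARS1, which carry the same 8 letters as CARS1 and were not called. They lie at chr11:3057407-3057436 on the minus strand (CARS1), chr11:62881719-62881748 on the plus strand (SLC3A2), chr7:97872458-97872487 on the minus strand (ASNS), chr2:64989381-64989410 on the plus strand (SLC1A4), chr12:57488053-57488082 on the plus strand (MARS1) and chr9:92293692-92293721 on the minus strand (IARS1). The windows of SLC3A2, ASNS and SLC1A4 belong to transcript starts inside the span of the gene, and those of CARS1, MARS1 and IARS1 to its outermost start. Each is written on the strand of its gene, and capitals mark the motif in either orientation.
CARS1: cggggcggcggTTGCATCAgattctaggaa
SLC3A2: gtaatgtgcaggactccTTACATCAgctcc
ASNS: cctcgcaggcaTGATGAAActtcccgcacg
SLC1A4: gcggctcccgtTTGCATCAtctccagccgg
MARS1: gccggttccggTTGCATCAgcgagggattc
IARS1: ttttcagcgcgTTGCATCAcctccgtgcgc
A match describes the letters of the window and says nothing of binding in these cells.

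The knockdown was visible in both assays. RPS29 RNA was counted 2430 and 2872 times in control cells against 147 and 117 times after knockdown (log2 fold change -4.40, SE 0.115, edgeR adjusted p = 6.32e-12), and its footprints changed by -2.41 (log2, SE 0.602, edgeR adjusted p = 0.0193). RNA-seq totals ran from 17539104 to 19156104 counts and Ribo-seq totals from 2630463 to 4375971. Spearman correlations between libraries were 0.985 to 0.993 within RNA-seq and 0.455 to 0.827 within Ribo-seq. Of 11 markers of noradrenergic neuroblastoma, 10 exceeded a CPM of 1 (counts scaled to a common library size), the exception being TH at 0.168 CPM in the controls; their summed level was 7037 to 7290 CPM in control libraries, compared with 6432 to 6467 CPM under RPS29 knockdown. Among them STMN2 (mean 922 against 448 CPM) and CHGA (1669 against 1202 CPM) were called lower by edgeR, and ISL1 (147 against 191 CPM) was called higher. Summed markers of other cells were 97.3 to 98.8 against 80.2 to 81.4 CPM for fibroblasts (5 of 5 listed), 6.37 to 7.47 against 10.4 to 14.02 CPM for blood (3 of 4 listed) and 4.56 to 5.69 against 3.23 to 4.30 CPM for epithelium (4 of 5 listed), and their part in the results was not tested. These are bulk libraries, so fewer cells of a type and less RNA per cell cannot be told apart.

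In RNA, members changed in both directions, at rates near those of all genes. Several cytoplasmic synthetases and the transporter heavy chain SLC3A2 rose after RPS29 knockdown, the glutaminyl enzyme QARS1 fell, and 3 enzymes of serine, glycine and asparagine synthesis fell. Of 51 members, 9 were called higher (17.6%, against 14.4% of all 14723 genes tested) and 7 were called lower (13.7%, against 16.3% of all genes tested). The median log2 fold change was -0.0011 over the members and 0.0074 over all genes, and the members ranged from -0.66 to 0.69. Calls are edgeR quasi-likelihood tests with a Benjamini-Hochberg adjusted p below 0.05 over all genes. Both knockdown libraries lay above both controls for 21 members (41.2%, against 32.3% of all genes) and below both for 16 (31.4%, against 32.9%). Leaving out control library 1 gave 4 members called lower, and leaving out control library 2 gave 3. No member passed a test against a 1.5-fold change.

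**Figure D1:**
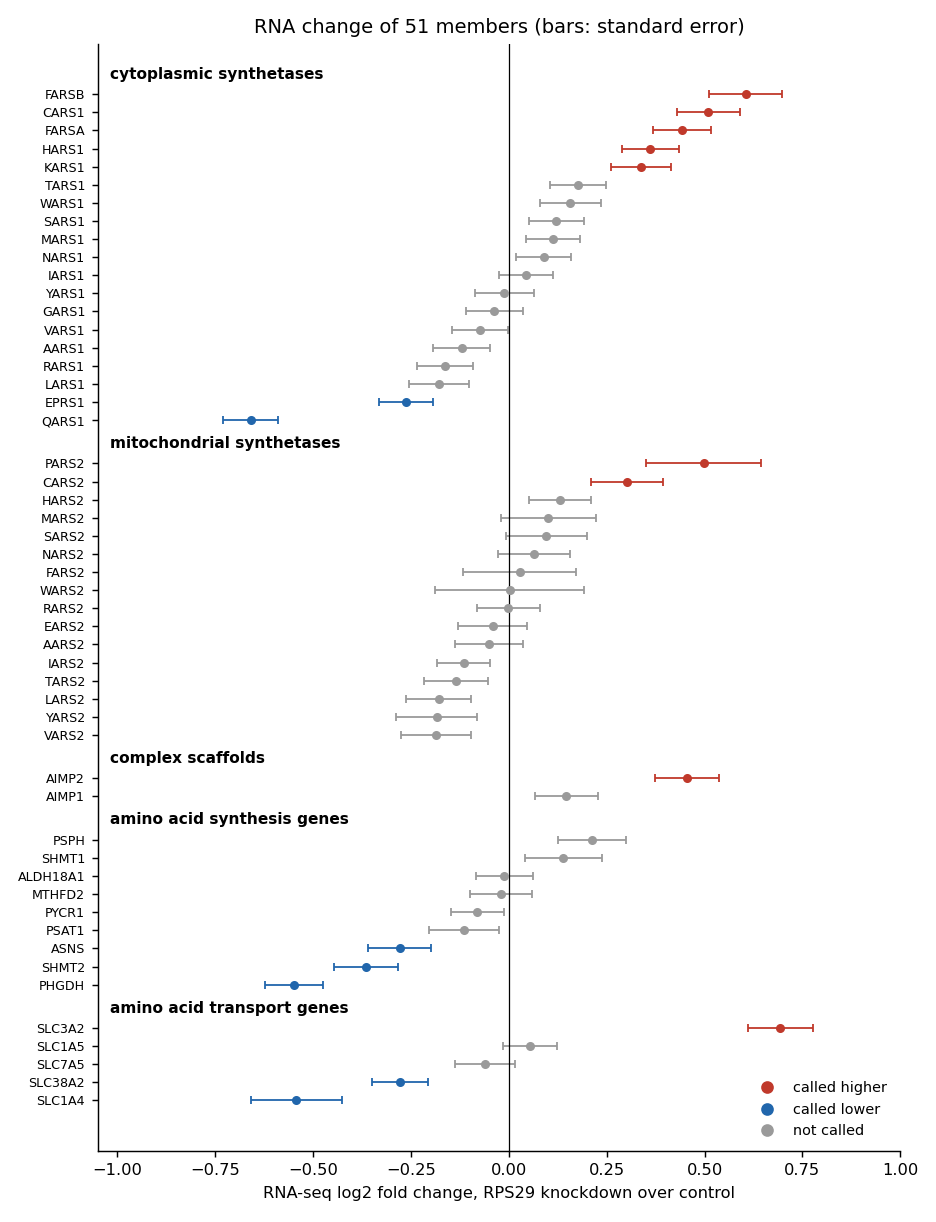
RNA-seq log2 fold change of each of the 51 members, knockdown over control (2 libraries each), grouped by role; points are edgeR estimates, bars are standard errors, and colour marks the call. SLC3A2 (0.69) lies farthest to the right and QARS1 (-0.66) farthest to the left, and the mitochondrial synthetases other than PARS2 and CARS2 lie near 0.

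Among the 19 cytoplasmic synthetases, 5 were called higher (26.3%, against 14.4% of all genes tested) and 2 of 19 lower (against 16.3%). Their median was 0.09. FARSB and FARSA, the beta and alpha subunits of the phenylalanyl enzyme, both rose. FARSB RNA was 59.1 and 62.2 CPM in control libraries, compared with 101 and 83.2 CPM under knockdown (log2 fold change 0.61, SE 0.0936, edgeR adjusted p = 0.000223). FARSA was at 243 and 245 CPM in control cells against 349 and 314 CPM after knockdown (0.44, SE 0.0736, edgeR adjusted p = 0.000394). The groups did not overlap for either subunit, and knockdown library 1 was the higher of the knockdown pair for both. The count ratio of FARSA to FARSB was 4.11 and 3.94 in control cells against 3.45 and 3.77 after knockdown.

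CARS1, which charges cysteine tRNA, was at 48.6 and 47.2 CPM in control libraries, compared with 69.6 and 66.7 CPM under knockdown (0.51, SE 0.0803, edgeR adjusted p = 0.00026). HARS1, the histidyl enzyme, was at 146 and 154 CPM against 200 and 185 CPM (0.36, SE 0.0728, edgeR adjusted p = 0.00166). In both, each knockdown library exceeded each control; without control replicate 1, HARS1 was no longer called. KARS1, the lysyl enzyme, which also serves mitochondria, rose by 0.34 (SE 0.0763, edgeR adjusted p = 0.00375) and lost its call when either control was left out. Of all cytoplasmic synthetases, 3 were called higher without control replicate 1 and 8 without knockdown replicate 2.

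QARS1, which charges glutamine tRNA and lies at chr3:49095932-49104757, had the lowest log2 fold change of the 51 members. Its RNA was 194 and 201 CPM in control libraries, compared with 125 and 125 CPM under RPS29 knockdown (-0.66, SE 0.0698, edgeR adjusted p = 8.87e-06). The knockdown libraries were nearly equal and far below both controls. EPRS1, the fused glutamyl and prolyl enzyme, was at 237 and 243 CPM against 195 and 204 CPM (-0.26, SE 0.0689, edgeR adjusted p = 0.00959), a call lost when either control was left out. The other 12 cytoplasmic synthetases were not called and ranged from -0.18 for LARS1 to 0.18 for TARS1.

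The direction was also viewed by enzyme family, a grouping chosen after the values were seen and not tested. The 7 listed synthetases of the multi-synthetase complex (EPRS1, IARS1, KARS1, LARS1, MARS1, QARS1 and RARS1) had a median of -0.16, with KARS1 called higher and QARS1 and EPRS1 lower. The 12 that act outside the complex had a median of 0.14, with 4 called higher and 0 lower. By fold of the catalytic domain, 4 of 9 class II genes (FARSA, FARSB, HARS1 and KARS1) and 1 of 9 class I genes (CARS1) were called higher. In turn 0 class II genes and 1 class I gene (QARS1) were called lower, and the fused EPRS1, also called lower, was in neither group. The medians were 0.18 for class II and -0.01 for class I, and FARSA and FARSB are 2 subunits of 1 enzyme. Of all genes tested, 14.4% were called higher and 16.3% lower. The scaffold AIMP2 rose, from 81.1 and 81.5 CPM to 119 and 104 CPM (0.46, SE 0.0818, edgeR adjusted p = 0.000714). AIMP1 was at 60.6 and 63.5 CPM in control cells against 70.7 and 66.7 CPM after knockdown (0.15, SE 0.0798) and was not called, although the groups did not overlap. The count ratio of AIMP2 to AIMP1 was 1.34 and 1.28 in control libraries, compared with 1.68 and 1.56 under knockdown.

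Among the 16 mitochondrial synthetases, 2 were called higher (12.5%, against 14.4% of all genes tested) and 0 lower (against 16.3%) in edgeR. Their median was 0.00063 and they ranged from -0.19 to 0.50. PARS2, the prolyl enzyme, was at 9.24 and 10.1 CPM in control cells against 14.6 and 12.8 CPM after knockdown (0.50, SE 0.147, edgeR adjusted p = 0.0188). CARS2, the cysteinyl enzyme, was at 44.8 and 39.0 CPM against 53.3 and 49.9 CPM (0.30, SE 0.0921, edgeR adjusted p = 0.0218). Neither was called by DESeq2, CARS2 was not called without control replicate 2, and PARS2 was not called without control replicate 1 or knockdown replicate 1. Both knockdown libraries lay below both controls for 5 of the 16 (31.2%, against 32.9% of all genes) and above both for 5 (31.2%, against 32.3%). LARS2 (-0.18) and VARS2 (-0.19), the leucyl and valyl enzymes, were among the 5 below and were not called. LARS2 was the 1 below 0 with an unadjusted p under 0.05 in edgeR. The share of RNA counts held by the 16 genes was 0.0779 and 0.0771% in control libraries, compared with 0.0799 and 0.0797% under knockdown, while the 19 cytoplasmic synthetases held 0.328 and 0.323% in control cells against 0.365 and 0.355% after knockdown. Whether the classes differ in their change was not tested.

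Of the cytoplasmic and mitochondrial partners for the same amino acid, both cysteinyl enzymes were called higher. HARS1 and HARS2, neighbours on chromosome 5 transcribed away from each other with 84 bases between the genes, did not share a call: HARS2 was at 59.3 and 57.7 CPM in control libraries, compared with 65.0 and 63.1 CPM under knockdown (0.13, SE 0.0788), and the count ratio of HARS1 to HARS2 went from 2.46 and 2.66 to 3.08 and 2.93.

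**Figure D2:**
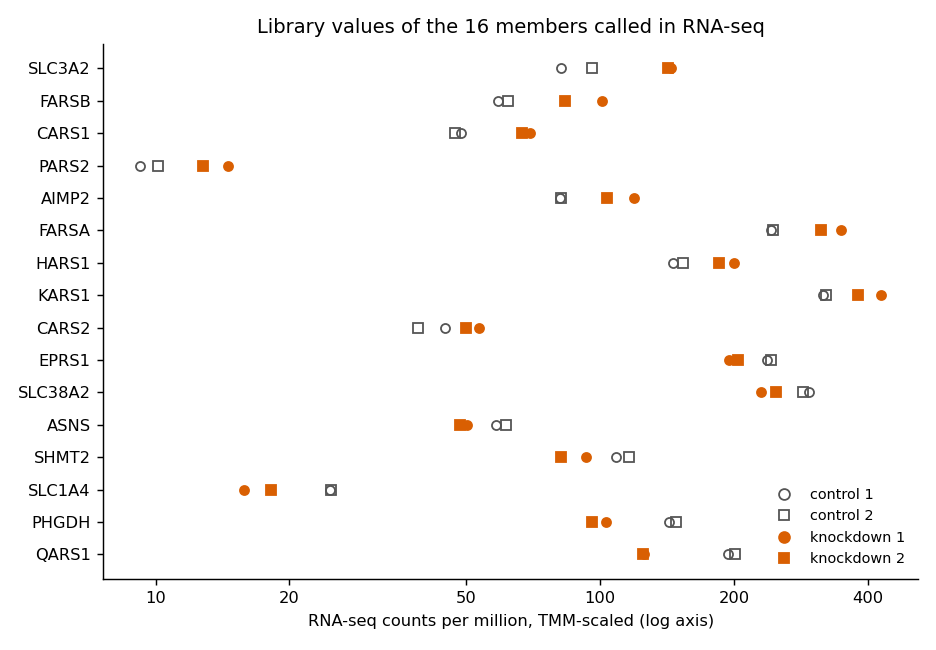
TMM-scaled RNA-seq CPM (log axis) of the 16 members called in RNA-seq, with 1 point per library; open symbols are controls and filled symbols are knockdown libraries. For each gene both knockdown points lie on the same side of both controls, above for the upper 9 genes and below for the lower 7.

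The 9 synthesis genes gave 0 called higher (against 14.4% of all genes tested) and 3 called lower (33.3%, against 16.3%). Their median was -0.08. PHGDH, which carries out the first step of serine synthesis from glycolysis, was at 143 and 148 CPM in control cells against 103 and 95.7 CPM after knockdown (-0.55, SE 0.0738, edgeR adjusted p = 7.15e-05). The next enzyme, PSAT1, was at 87.7 and 102 CPM against 92.4 and 82.8 CPM and was not called (-0.11, SE 0.0886). PSPH, the last enzyme, was at 58.0 and 54.5 CPM against 69.4 and 60.9 CPM and was not called (0.21, SE 0.0873), being the 1 synthesis gene above 0 with an unadjusted p under 0.05 in edgeR. The 3 steps of the serine pathway thus had separate RNA values: PHGDH below both controls, PSAT1 overlapping them and PSPH above both.

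SHMT2, which makes glycine from serine in mitochondria, was at 109 and 116 CPM in control libraries, compared with 92.8 and 81.7 CPM under knockdown (-0.36, SE 0.0817, edgeR adjusted p = 0.00351). Its cytosolic counterpart SHMT1 had a log2 fold change of 0.14 (SE 0.0983) and was not called. ASNS, which makes asparagine and is a classical ATF4 target, was at 58.2 and 61.5 CPM against 50.2 and 48.5 CPM (-0.28, SE 0.0815, edgeR adjusted p = 0.0174). The groups of ASNS did not overlap, but the call was lost without either control, and that of SHMT2 without control replicate 2. MTHFD2 (-0.02), ALDH18A1 (-0.01) and PYCR1 (-0.08), enzymes of mitochondrial folate and proline synthesis, were not called.

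Of the 5 transporters, 1 was called higher (20%, against 14.4% of all genes tested) and 2 lower (40%, against 16.3%). SLC3A2, the heavy chain that carries several exchanger light chains to the membrane, had the highest log2 fold change of the 51 members. Its RNA was 81.5 and 95.7 CPM in control cells against 144 and 142 CPM after knockdown (0.69, SE 0.0829, edgeR adjusted p = 2.54e-05), the gene lying at chr11:62856109-62888860. SLC7A5, its light chain in the large neutral amino acid exchanger, was at 108 and 111 CPM against 99.3 and 111 CPM and was not called (-0.06, SE 0.0774). The count ratio of SLC3A2 to SLC7A5 was 0.753 and 0.865 in control cells against 1.45 and 1.29 after knockdown, higher in each knockdown library than in each control. SLC1A4, an exchanger of serine and alanine, was at 24.6 and 24.9 CPM against 15.8 and 18.2 CPM (-0.54, SE 0.116, edgeR adjusted p = 0.00248). SLC38A2, a sodium-coupled importer of neutral amino acids, was at 295 and 286 CPM against 230 and 249 CPM (-0.28, SE 0.0715, edgeR adjusted p = 0.00861), a call lost without either control. SLC1A5, the glutamine exchanger, was not called (0.05, SE 0.0687). Synthesis and transport genes together gave 1 higher (7.14%, against 14.4% of all genes) and 5 lower (35.7%, against 16.3%) of 14. The lower count was smaller without either control, and the higher count was larger without knockdown replicate 2.

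A list of 72 further genes of tRNA charging and amino acid metabolism was followed in the same RNA-seq test. Of these, 67 were tested, 13 were called higher (19.4%, against 14.4% of all genes) and 9 lower (13.4%, against 16.3%), with a median of 0.03; the higher calls numbered 8 without control replicate 2, and the lower calls 4 without either control. Among 15 tested genes of tRNA sensing and the ATF4 arm, 6 rose (40%, against 14.4% of all genes) and 1 fell (6.67%, against 16.3%). DDIT3, the stress transcription factor CHOP, was at 2.20 and 2.40 CPM in control libraries, compared with 14.8 and 13.5 CPM under knockdown (2.62, SE 0.194, edgeR adjusted p = 3.74e-07). VLDLR, a lipoprotein receptor, fell by 0.65 (SE 0.0929, edgeR adjusted p = 0.000125), and PPP1R15A, which directs dephosphorylation of eIF2, rose by 0.55 (SE 0.0924, edgeR adjusted p = 0.000429). The other 4 called higher were SESN2 (0.74), TRIB3 (0.58), CEBPG (0.45) and ATF4 itself (0.27, edgeR adjusted p = 0.0298), named although the rule for values took only 3 genes a group. The count of DDIT3 and that of MARS1 may share reads, since their spans overlap by 65 bases and no source used here says whether counting used strand.

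**Figure D3:**
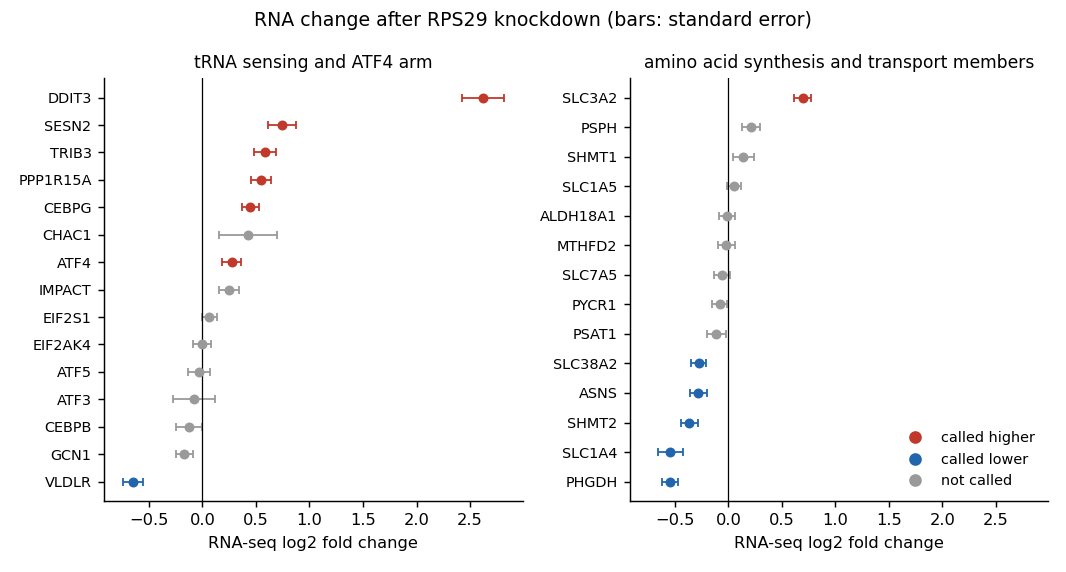
RNA-seq log2 fold change with standard error for the 15 tested genes of tRNA sensing and the ATF4 arm (left) and for the 14 synthesis and transport members (right), on the same scale. The left panel holds 6 genes called higher, led by DDIT3 (2.62), and the right panel holds 1 called higher, SLC3A2, and 5 called lower.

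The other groups of that list held genes of both directions or lower ones. Of all genes tested, 14.4% were called higher and 16.3% lower. These shares were 9.09 and 9.09% for other charging genes, 26.1 and 17.4% for other amino acid and folate metabolism, and 0 and 16.7% for other transporters. Of 11 other charging genes, PUS1, a tRNA pseudouridine synthase, rose (0.43, SE 0.096, edgeR adjusted p = 0.00353), and GATC, a subunit of the mitochondrial amidotransferase that makes glutaminyl-tRNA, fell (-0.25, SE 0.0872, edgeR adjusted p = 0.0384). Of 23 tested genes of other amino acid and folate metabolism, 6 rose and 4 fell. The smallest p-values there belonged to BCAT1, which transfers amino groups of branched-chain amino acids (0.39, edgeR adjusted p = 0.000894), MAT2A, which makes S-adenosylmethionine (-0.37, edgeR adjusted p = 0.000908), and MTHFD1L, a mitochondrial folate enzyme (0.41, edgeR adjusted p = 0.00139). Of 18 other transporters, 0 were called higher and 3 lower in edgeR: SLC38A1, a glutamine importer, at 274 and 278 CPM in control libraries, compared with 160 and 172 CPM under RPS29 knockdown (-0.73, SE 0.0708, edgeR adjusted p = 4.17e-06), SLC36A1, a proton-coupled carrier (-0.71), and SLC7A3, a cationic amino acid carrier near 1 CPM (-1.39, SE 0.498). SLC7A2, another cationic carrier, was the 1 of these above 0 with an unadjusted p under 0.05 in edgeR (0.20).

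Members whose promoters hold TGATGNAA went in both directions. Of the 12 holders, CARS1 and SLC3A2 were called higher, ASNS and SLC1A4 lower and 8 were not called, with a median of 0.05; the 31 members with a promoter lacking these letters had 7 higher, 4 lower and a median of 0.03. Over all tested genes with a promoter, 13.92% of the 316 with the motif were called higher and 19.94% lower, against 14.73% and 16.47% of the 11341 without it.

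Footprint changes carried much larger errors than RNA changes. PSAT1, the second enzyme of serine synthesis, was the 1 member called lower in Ribo-seq, and 0 were called higher, of 49 tested (MARS2 was listed but too low to test); over all 11853 genes tested, 7.96% were called higher and 0.607% lower (8.57% in either direction). PSAT1 footprints were counted 179 and 159 times in control cells against 33 and 47 times after knockdown, which is 53.4 and 48.2 against 13.7 and 11.8 CPM (log2 fold change -1.99, SE 0.563, edgeR adjusted p = 0.0363). The groups did not overlap, and the gene lies at chr9:78297125-78330093. The call was lost when any of the 4 libraries was left out, with values from -1.95 to -2.10 and edgeR adjusted p from 0.0602 to 0.237. At an unadjusted p below 0.05, edgeR took 23.1% of all genes tested and 7 members, namely PSAT1, WARS2, MARS1, AIMP2, LARS2, SHMT2 and SLC1A5.

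Most members had a negative footprint change. Of the 49, 40 were below 0 and the median was -0.74, against 5775 of 11853 and 0.04 over all genes, with a median SE of 0.602 for a member. Both knockdown libraries lay below both controls for 26 members (53.1%, against 26.7% of all genes) and above both for 5 (10.2%, against 29% of all genes). The medians were -0.56 for cytoplasmic synthetases, -0.65 for mitochondrial synthetases and -0.92 for synthesis and transport genes. These medians rested in part on single libraries. The median over members was -0.44 without knockdown replicate 1 (36 of 50 below 0), -0.49 without control replicate 2 (37 of 50) and -1.28 without knockdown replicate 2 (40 of 49). For cytoplasmic synthetases, leaving out knockdown replicate 1 gave -0.37 and leaving out knockdown replicate 2 gave -0.95. Mitochondrial synthetases had -0.43 without knockdown replicate 1 and -0.35 without control replicate 2, where 8 of 15 were below 0. Synthesis and transport genes had -0.61 without either of these libraries and -1.39 without knockdown replicate 2. Among genes with a mean of at least 50 counts in every group, 17 of 24 members were below 0 with a median of -0.40; the class medians were -0.24 for 16 cytoplasmic synthetases, -0.60 for 4 synthesis and transport genes and 1.19 for the 3 mitochondrial synthetases that were left. Together the members held 0.283 and 0.216% of Ribo-seq counts in control cells against 0.113 and 0.143% after knockdown. Without the 9 members that hold a small RNA gene, the shares were 0.145 and 0.135% against 0.0641 and 0.0892%.

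Among the 6 members with the smallest footprint p-values, MARS1, which charges methionine tRNA, was counted 346 and 308 times in control libraries, compared with 65 and 162 times under RPS29 knockdown (-1.53, SE 0.546, edgeR adjusted p = 0.094). AIMP2 was counted 674 and 696 times against 125 and 389 times (-1.46, SE 0.568, edgeR adjusted p = 0.128). SHMT2 was counted 93 and 100 times against 18 and 58 times (-1.38, SE 0.603, edgeR adjusted p = 0.177). In these 3 both knockdown libraries were below both controls and knockdown library 1 was the lower of its pair, and none passed the adjusted threshold in edgeR. MARS1 and AIMP2 were called lower by DESeq2 (adjusted p = 0.0448 and 0.0476) and by limma-voom (adjusted p = 0.0443 and 0.0492). MARS1 holds the microRNA gene MIR6758 and AIMP2 the small nucleolar RNA gene SNORA80D, whose fragments could be counted as footprints of the host, and their part was not tested.

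The 2 others of these 6 moved upward and were mitochondrial synthetases with long genes. WARS2, the tryptophanyl enzyme, was counted 0 and 10 times in control cells against 28 and 72 times after knockdown (3.27, SE 1.09, edgeR adjusted p = 0.0727). LARS2 was counted 61 and 39 times against 103 and 141 times (1.38, SE 0.57, edgeR adjusted p = 0.152). Neither passed the adjusted threshold in edgeR. WARS2 was called higher by DESeq2 (adjusted p = 0.0442). Without control replicate 2, the remaining control library had 0 counts of WARS2, and the edgeR log2 fold change was 8.59.

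Counts expected from the span of a gene alone were also computed. In 121 genes with at most 0.1 CPM of RNA and no small RNA gene inside, the median was 0.0614 and 0.0488 footprint counts per kb in control libraries, compared with 0.37 and 0.247 under knockdown. At this rate the 109-kb span of WARS2 would hold 6.72 and 5.34 counts in control cells against 40.5 and 26.99 after knockdown, or 72.3% of its counts over the 4 libraries, and that of LARS2 34.0%; the part of such background in their values was not tested. For PSAT1 this share was 5.73%, for MARS1 2.36%, for SHMT2 1.41% and for AIMP2 0.562%. Only genes listed in the Ribo-seq table could set this rate, so it and its rise after knockdown may be too high. The rate also exceeded some counts. ASNS had 28.4 counts expected in knockdown library 1 against 7 found, and for FARS2 the expected share was 101%. Over the 49 members, the Spearman correlation of gene span with the footprint change was 0.615, where all points share the same 4 libraries and their background; over 11800 genes it was 0.497. With the RNA change of the 51 members, span had a correlation of 0.00905.

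**Figure D4:**
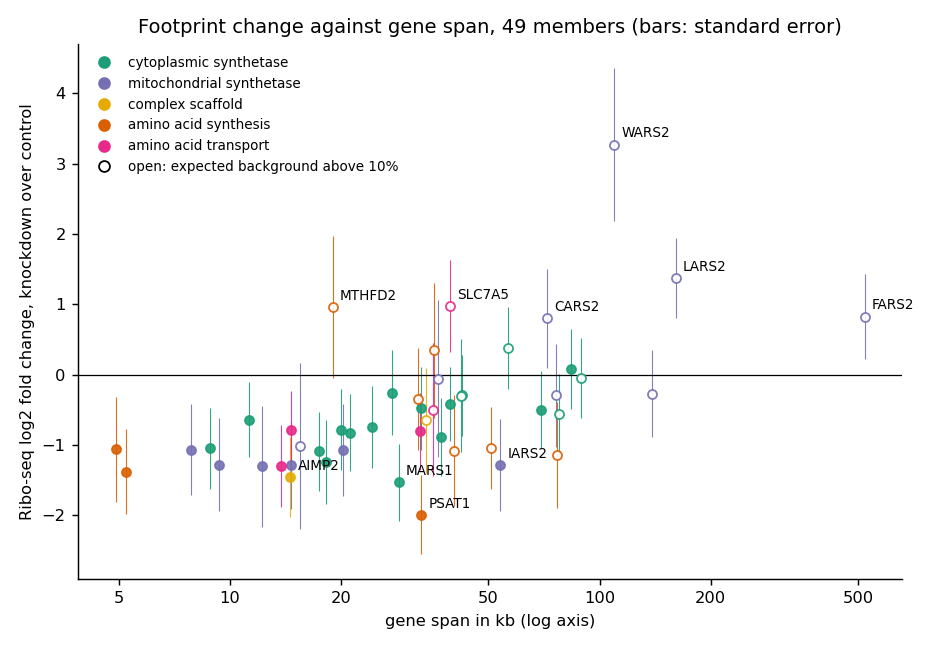
Ribo-seq log2 fold change against gene span (log axis) for 49 members, with standard errors; filled points have an expected span background of at most 10% of their counts and open points have more. The members above 0 are mostly open points with long spans, such as WARS2 (3.27), LARS2 (1.38) and FARS2 (0.82), and PSAT1 (-1.99) is the lowest point.

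Members were also described by that share, which uses the same counts that are compared. With at most 10% expected background, 26 of 27 members were negative and the median was -1.06; over all 3898 such genes, 75.4% were negative and the median was -0.64. With more than 10%, 14 of 22 members were negative with a median of -0.28, against 35.5% of 7902 genes and a median of 0.44. The mitochondrial synthetases divided by this share: the 6 with low background (AARS2, HARS2, IARS2, TARS2, VARS2 and YARS2) had a median of -1.28, and the 8 with high background had a median of 0.37. IARS2, counted 1847 and 691 times in control libraries, compared with 515 and 393 times under RPS29 knockdown, holds MIR215 and MIR194-1 and overlapped between groups. Among cytoplasmic synthetases, the medians were -0.76 for 14 with low background and -0.30 for 5 with more.

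When scaling and testing were limited to low-background genes, an alternative chosen after seeing the data, the members' median moved to -0.43, with 21 of 27 negative, beside a median of -0.0021 over all 3909 genes in that fit. The cytoplasmic synthetases then had a median of -0.07 with 8 of 14 negative. The 6 mitochondrial synthetases (-0.56) and the 6 synthesis and transport genes (-0.57) remained below 0 in each case. PSAT1 was at -1.31 (edgeR adjusted p = 0.183), MARS1 at -0.90 (edgeR adjusted p = 0.257) and AIMP2 at -0.84 (edgeR adjusted p = 0.297), and 0 members were called in either direction by edgeR.

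**Figure D5:**
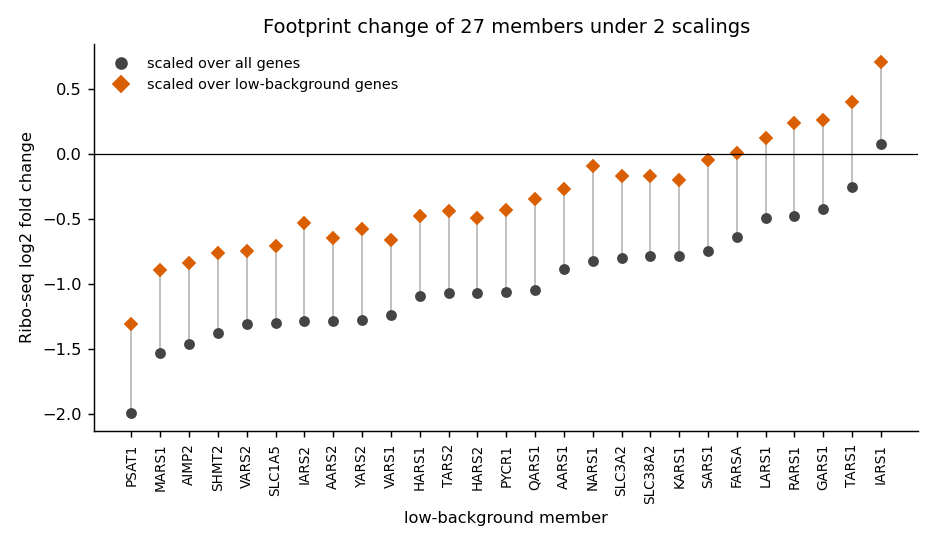
Ribo-seq log2 fold change of the 27 low-background members, scaled over all genes (circles) and over low-background genes alone (diamonds). Each member is higher under the latter scaling; 26 of 27 are below 0 under the former and 21 of 27 under the latter, and PSAT1 is lowest in both.

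Translational efficiency, taken as footprints per RNA, was lower in 3 of 49 members tested and higher in 0 by the edgeR interaction of assay and condition, against 1.35% lower and 2.9% higher of 10648 genes (4.25% in either direction). PSAT1 had a ratio of 0.536 in control libraries, compared with 0.146 under knockdown (log2 change -1.89, SE 0.335, edgeR adjusted p = 0.0328). MARS1 went from 0.496 to 0.158 (-1.64, SE 0.35, edgeR adjusted p = 0.0442), and AIMP2 from 2.53 to 0.671 (-1.91, SE 0.423, edgeR adjusted p = 0.0473). Of these 3, AIMP2 rose in RNA, and PSAT1 and MARS1 were not called there. The median over members was -0.75 and 39 of 49 were negative, against -0.06 over all genes; it was -0.39 with a mean of at least 50 counts in every group (18 of 24 negative) and -0.41 among low-background genes (20 of 27). At an unadjusted p below 0.05 there were 14 members of 49, against 26.6% of all genes; WARS2 and LARS2 were the 2 of them above 0, and limma-voom called 2 members higher.

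SLC3A2, the member with the highest RNA change, had 361 and 413 footprints in control cells against 117 and 337 after knockdown (-0.80, SE 0.548), and its ratio went from 1.31 to 0.465 (-1.49, SE 0.405, edgeR adjusted p = 0.0683), which was not called. SLC7A5 had 57 and 19 footprints against 52 and 92 (0.97, SE 0.654), with 13.0% expected background. It holds the microRNA genes MIR6775 and MIR11401, whose part was not tested. ASNS had 70 and 43 against 7 and 48 (-1.14, SE 0.757, 33.2% expected background), and PHGDH had 36 and 63 against 12 and 72 (-0.35, SE 0.726), where the groups overlapped. AIMP1, with 39 and 66 against 9 and 64 (-0.65, SE 0.746), overlapped as well. Over 49 members the Spearman correlation of RNA change with footprint change was 0.178. The 3 calls of lower efficiency were lost when any of the 4 RNA-seq libraries was left out and among low-background genes alone, where PSAT1 was at -1.21 (edgeR adjusted p = 0.127), MARS1 at -1.001 (0.0735) and AIMP2 at -1.28 (0.0601). The number of members called lower was 5, 1, 8 and 21 without Ribo-seq control replicate 1, control replicate 2, knockdown replicate 1 and knockdown replicate 2 in turn.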

How the data were processed

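The deposited tables, 1 for each assay, give unnormalized whole-number counts by gene symbol. Per the submitters' processing notes the authors used Trim Galore, Salmon, Bowtie2, STAR and featureCounts and build hg38; no source used here assigns these tools to a table or gives their versions, the strand setting or the features counted. Per the labels' protocols, RNA-seq used a stranded total RNA kit, and Ribo-seq used RNase I, size-column monosomes and rRNA depletion. Counts in introns or from embedded small RNAs may therefore be included in footprints.

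Each assay was tested with edgeR 4.0.16 (quasi-likelihood, TMM, filterByExpr, Benjamini-Hochberg) in R 4.3.3, with 2 libraries a group; CPM are TMM-scaled. Translational efficiency was the assay-by-condition interaction over 8 libraries, which has 1 dispersion per gene for both assays, so its errors understate the spread of footprints. Scripts were tested on simulated data. Alternatives used RLE, DESeq2 1.42.0, limma 3.58.1 (voom), other count filters, a 1.5-fold test, a replicate block and leaving out libraries; those on low-background genes and on genes without an inner small RNA gene were chosen after seeing the data. Replicate pairs differed by more than sampling noise (chi-square per degree of freedom 3.31 to 76.5).

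The members and lists were chosen with earlier results of these data known. Each member may be named; all library values are given for up to 4 members per class called in each direction, for ASNS, PHGDH, PSAT1, SHMT2, SLC7A5, SLC3A2, AIMP1 and AIMP2, and for the 6 smallest Ribo-seq p-values; other genes of the pathway list are named for the 3 smallest p-values per group. Loci and promoters came from RefSeq tables of GRCh38.p14 by symbol (51 and 43 of 51 members matched).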

Additional observations from a re-analysis of the deposited data

How the results depend on the processing

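Directions of called values were the same under all alternatives run. A test against a 1.5-fold change left 0 members higher and 0 lower in RNA-seq, in each class that had calls, 1 and 0 genes of the pathway list, and 0 lower in Ribo-seq. DESeq2 called 0 mitochondrial synthetases higher in RNA-seq and 1 member higher and 3 lower in Ribo-seq. limma-voom called 3 members lower in Ribo-seq and 2 higher in translational efficiency. Without a count filter 1 member was higher in Ribo-seq. With a mean of at least 50 counts in every group 0 were lower, since PSAT1, with 33 and 47 knockdown counts, was filtered out. With low-background genes only, 0 were lower in Ribo-seq and 0 in efficiency. With genes without an inner small RNA gene, 1 was lower in efficiency, since MARS1 and AIMP2 hold such genes and were not in that fit. Deviations of same-numbered libraries correlated at -0.0842 in RNA-seq and 0.114 in Ribo-seq. With 2 libraries a group, these values cannot show whether replicate numbers pair the libraries. The fit with the replicate block called 5 pathway genes lower in RNA-seq, 1 member higher and 4 lower in Ribo-seq, and 0 lower in efficiency; in RNA-seq the block changed no other count by over 1.5 times.

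Leaving out each library in turn, with the lone library of a group assumed to vary like the other group, the counts ranged in RNA-seq from 6 to 13 members higher and 3 to 9 lower, 3 to 8 and 1 to 3 cytoplasmic synthetases, 1 to 2 mitochondrial synthetases higher and 0 lower, 1 to 2 and 2 to 6 synthesis and transport genes, and 8 to 16 and 4 to 11 pathway genes. In Ribo-seq they ranged from 0 to 1 higher and were 0 lower, and in efficiency from 0 to 2 higher and 0 to 21 lower. The cause of these changes was not tested, beyond fewer libraries or genes in the fit. For single members over all settings, RNA-seq values kept their side of the threshold in 523 fits, passed it in 7 and lost it in 31; the numbers were 564, 11 and 6 in Ribo-seq and 574, 35 and 21 in efficiency. At the depth and spread of Ribo-seq, with a median SE of 0.602 per member, small footprint changes were not detectable.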

Other observations

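In footprints, 3 of 58 tested genes of the pathway list were called higher by edgeR (5.17%, below the 7.96% of all genes tested) and 0 lower. They were the folate enzymes MTHFD1L, counted 41 and 31 times in the controls and 277 and 177 times in the knockdown, and ALDH1L1, counted 2 and 0 times against 53 and 50 times, and the glutamate carrier SLC1A3, counted 5 and 1 times against 48 and 41 times. Their spans were 236, 94.4 and 91.7 kb, and the expected span background was 32.6, 65.3 and 70.2% of their counts. SLC1A3 was not listed in RNA-seq. The 3 were named after their values were seen, and the part of background in the calls was not tested.

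A further motif, the E-box CACGTG bound by MYC and related factors, was found in 8 of 43 members with a promoter (18.6%). The share was 12.27% of tested genes with a promoter. Its holders were MARS2, AIMP2, IARS1, ALDH18A1, CARS2, EARS2, SLC7A5 and SLC1A5. Of these, AIMP2 and CARS2 were called higher in RNA-seq and 0 lower by edgeR, against 14.4% and 16.3% of all genes tested. Among members with a promoter, the E-box was in 2 of 9 called higher, 0 of 6 called lower and 6 of 28 not called. Whether holders differ in RNA change was not tested. RefSeq names 7 pseudogene copies for MTHFD2, 5 for ASNS, 4 for PSAT1 and 3 for KARS1, and counts of genes with near-identical copies are uncertain.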
